A study of Mus musculus with 12 samples.

Results

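Cbln4, Cst9, Mmd2, Aard, Map3k21 and Cnga1 are 6 genes of the early supporting-cell lineage that were described in Cbx2 knockout and wild-type mouse gonads at E11.5, when Sox9 rises in XY embryos. They were chosen from measured values of these same arrays, so every difference between groups is given for them as a description with no test. They are 6 of 18193 genes measured and are covered by 9 of the 34945 probe sets that the array annotation assigns to a single gene. Mmd2 has 3 of these probe sets, Map3k21 has 2 and the other genes have 1 each. The probe set of highest mean value stands for its gene, and the others are given beside it. Values are log2 signals after RMA, which corrects background, equalises the distributions of the arrays and summarises the probes of a set.

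The study asked what loss of Cbx2, a chromobox subunit of the Polycomb complex PRC1 that keeps developmental genes silent, does to gonads of both sexes at the onset of sex determination. Knockout embryos came from matings of heterozygous Cbx2 knockout mice, and embryos were staged by counting tail somites. Gonads were cut from unfixed frozen tissue at 30 µm, and cells recognised by GATA4 staining and shape were collected with a laser. Each of the 12 arrays held RNA pooled from 2 or 3 individuals, of which 15 ng went through 2 cycles of amplification.

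The 4 groups of 3 arrays each were XY embryos with Cbx2 knockout (KO XY), XY wild type (WT XY), XX embryos with Cbx2 knockout (KO XX) and XX wild type (WT XX), all at E11.5. The knockout was inherited and so not limited to gonadal cells, and no label used here states which part of Cbx2 it removes. The spread between arrays is a spread between pools and not between single embryos, and the number of arrays limits the precision. In bulk tissue, fewer cells of a type and less RNA per cell cannot be told apart.

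Supporting cells are the somatic cells of the gonad that become Sertoli cells in a testis and granulosa cells in an ovary. In XY embryos the Y-linked factor SRY switches on Sox9 in these cells, SOX9 then maintains its own expression, and a wave of Sertoli genes follows. Cbln4 encodes a secreted cerebellin of the C1q family, known at synapses and also made by fetal Sertoli cells. Cst9, or testatin, encodes a secreted relative of the cystatin protease inhibitors and appears in the mouse testis soon after Sry. Mmd2 encodes a membrane protein of the PAQR family, and Cnga1 encodes a subunit of the cyclic nucleotide-gated channel of rod photoreceptors. Map3k21 encodes a mixed-lineage kinase, a class that acts above stress-activated kinases, and Aard encodes a protein rich in alanine and arginine that is known as a Sertoli cell transcript.

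RefSeq promoter sequences were matched by symbol for 5 of the 6 genes, Cbln4, Cst9, Mmd2, Map3k21 and Cnga1, and the 250 bases before the annotated start were searched on both strands for 5 short motifs. These were the SOX core motifs AACAAT and ACAAAG, the GATA motif AGATAA, the nuclear receptor half-site AGGTCA and the TATA motif TATAAA, and no 2 of their matches overlapped in these windows. The windows of Cbln4, Cst9 and Cnga1 held a SOX motif and are shown for that reason, 5′ to 3′ on the strand of the gene (GRCm38.p6), with the matched bases in capitals. Cbln4 lies on the minus strand (chr2:172043467-172043716), Cst9 on the plus strand (chr2:148834897-148835146) and Cnga1 on the minus strand (chr5:72642753-72643002).
Cbln4: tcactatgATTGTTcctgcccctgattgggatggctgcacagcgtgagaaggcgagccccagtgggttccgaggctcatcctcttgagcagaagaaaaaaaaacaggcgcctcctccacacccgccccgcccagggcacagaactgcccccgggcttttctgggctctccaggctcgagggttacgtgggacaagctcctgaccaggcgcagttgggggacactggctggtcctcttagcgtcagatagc
Cst9: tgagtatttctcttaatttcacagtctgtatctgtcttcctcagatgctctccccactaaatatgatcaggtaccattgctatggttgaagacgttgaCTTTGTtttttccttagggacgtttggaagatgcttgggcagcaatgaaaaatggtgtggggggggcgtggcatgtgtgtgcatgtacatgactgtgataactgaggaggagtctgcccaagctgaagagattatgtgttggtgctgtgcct
Cnga1: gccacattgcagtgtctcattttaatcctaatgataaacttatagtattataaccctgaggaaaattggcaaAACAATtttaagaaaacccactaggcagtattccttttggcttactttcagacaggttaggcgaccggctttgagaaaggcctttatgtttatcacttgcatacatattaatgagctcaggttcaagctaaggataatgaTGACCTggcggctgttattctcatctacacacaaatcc
In Cbln4 the capitals mark AACAAT read on the opposite strand, 242 to 237 bases before the start. In Cst9 they mark ACAAAG on the opposite strand, 152 to 147 bases before it. Cnga1 had AACAAT 178 to 173 bases before the start and AGGTCA on the opposite strand at 38 to 33 bases. The windows of Mmd2 and Map3k21 held none of the 5 motifs, and no window held AGATAA or TATAAA. Such letters are common, with AACAAT in 9.42%, ACAAAG in 16.5%, AGATAA in 9.99%, AGGTCA in 14.0% and TATAAA in 12.4% of 32851 mouse promoter windows of the same length. The share of windows holding either SOX motif was not counted, so nothing is read from how many of these windows held one. A match is a match of letters and not a measured binding site.

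Before the comparisons, the labels were set against the data. Xist and the Y-linked Eif2s3y matched the labelled sex in all 12 arrays. Cbx2 itself had a higher signal in arrays labelled knockout, with 9.45 ± 0.12 in KO XY against 8.92 ± 0.12 in WT XY and 9.34 ± 0.11 in KO XX against 8.60 ± 0.16 in WT XX (SD, n = 3 each), so these probes give no check of the genotype. A source label of the wild-type samples names the KO XX group and contradicts their titles and genotype labels, so KO and WT stand for the titles and genotype labels. Of the markers of gonadal somatic cells, Wt1 lay between 10.93 and 11.18 in the 4 group means, Lhx9 between 11.53 and 12.74, Nr5a1 between 7.84 and 10.19 and Gata4 between 7.50 and 9.02. WT XX replicate 1 was less like its own group than like WT XY, since its correlation over all genes averaged 0.988 with the other WT XX arrays and 0.995 with the WT XY arrays. The difference between the 3′ and 5′ probe sets of the Gapdh control, which grows as RNA degrades or amplification shortens transcripts, was at least 4.78 in KO XY arrays, 3.89 to 4.57 in WT XY, 3.81 to 4.23 in KO XX and 3.83 to 4.72 in WT XX.

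The first comparison asked what loss of Cbx2 changes in XY gonads, where these genes normally accompany Sox9. All 6 genes were lower in KO XY, with every KO XY array below every WT XY array, a pattern that 18.1% of all genes showed. Their log2 differences lay between -3.86 and -1.80 with a median of -2.62, against a median of 0.01 over all genes. By the test across all genes, limma at a Benjamini-Hochberg adjusted p under 0.05, 6.75% of genes were lower and 6.56% were higher in KO XY. The rule by which the 6 genes were chosen used these values, so nothing is read from setting these shares beside each other.

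The 2 genes for secreted proteins had the lowest differences. Cbln4 (probe set 1433607_at) had log2 values of 4.92, 4.49 and 4.61 in the KO XY arrays, against 8.35, 8.57 and 8.68 in the WT XY arrays. The groups lay 3.43 apart at their nearest arrays, and the arrays within each group were close together. The difference was -3.86 ± 0.25 (SE), a signal 14.5-fold lower in KO XY, and 11 of 18193 genes had a lower one. Cst9 (1449285_at) had 4.68, 4.52 and 4.80 in the KO XY arrays, against 8.82, 7.09 and 7.23 in the WT XY arrays. The KO XY arrays were alike, whereas replicate 1 of WT XY stood well above replicates 2 and 3. The difference was -3.05 ± 0.35, or 8.26-fold, and it was -2.50 without WT XY replicate 1.

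The genes for membrane proteins followed. Mmd2 (1438654_x_at) had 5.48, 5.64 and 5.36 in the KO XY arrays, against 8.96, 7.54 and 7.83 in the WT XY arrays. The nearest arrays of the groups were 1.91 apart, and replicate 1 was again the highest of WT XY. The difference was -2.62 ± 0.29, or 6.15-fold. The other Mmd2 probe sets showed little of it, with a difference of -0.37 and no overlap for 1424534_at and of -0.03 with overlap for 1444572_at, and the mean of all 3 gave -1.01. Cnga1 (1451763_at) had 4.46, 4.81 and 4.76 in the KO XY arrays, against 7.36, 7.13 and 7.41 in the WT XY arrays. Both groups were tight, no array lay between them, and the difference was -2.62 ± 0.22, or 6.16-fold.

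The kinase gene Map3k21 (1441213_at) had 4.74, 4.65 and 4.55 in the KO XY arrays, against 7.67, 6.41 and 6.83 in the WT XY arrays. Its groups were 1.67 apart at the nearest arrays, and the difference was -2.32 ± 0.29. The second Map3k21 probe set, 1425807_at, lay between 4.02 and 4.69 in these 6 arrays and gave -0.23 with overlapping groups, and the mean of both gave -1.28. Aard (1434528_at) had 7.46, 7.13 and 7.53 in the KO XY arrays, against 9.95, 8.58 and 9.02 in the WT XY arrays. By the probe sets that stand for the genes, Aard had the smallest difference of the 6, -1.80 ± 0.25, or 3.49-fold, with the groups 1.05 apart. The KO XY means of Cbln4 (4.67), Cst9 (4.67), Mmd2 (5.49), Map3k21 (4.65) and Cnga1 (4.68) lay below the array medians of 5.88 to 5.94. Signals this low may lie near background, where a further fall cannot be seen. How far this limits the folds was not tested.

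**Figure D1:**
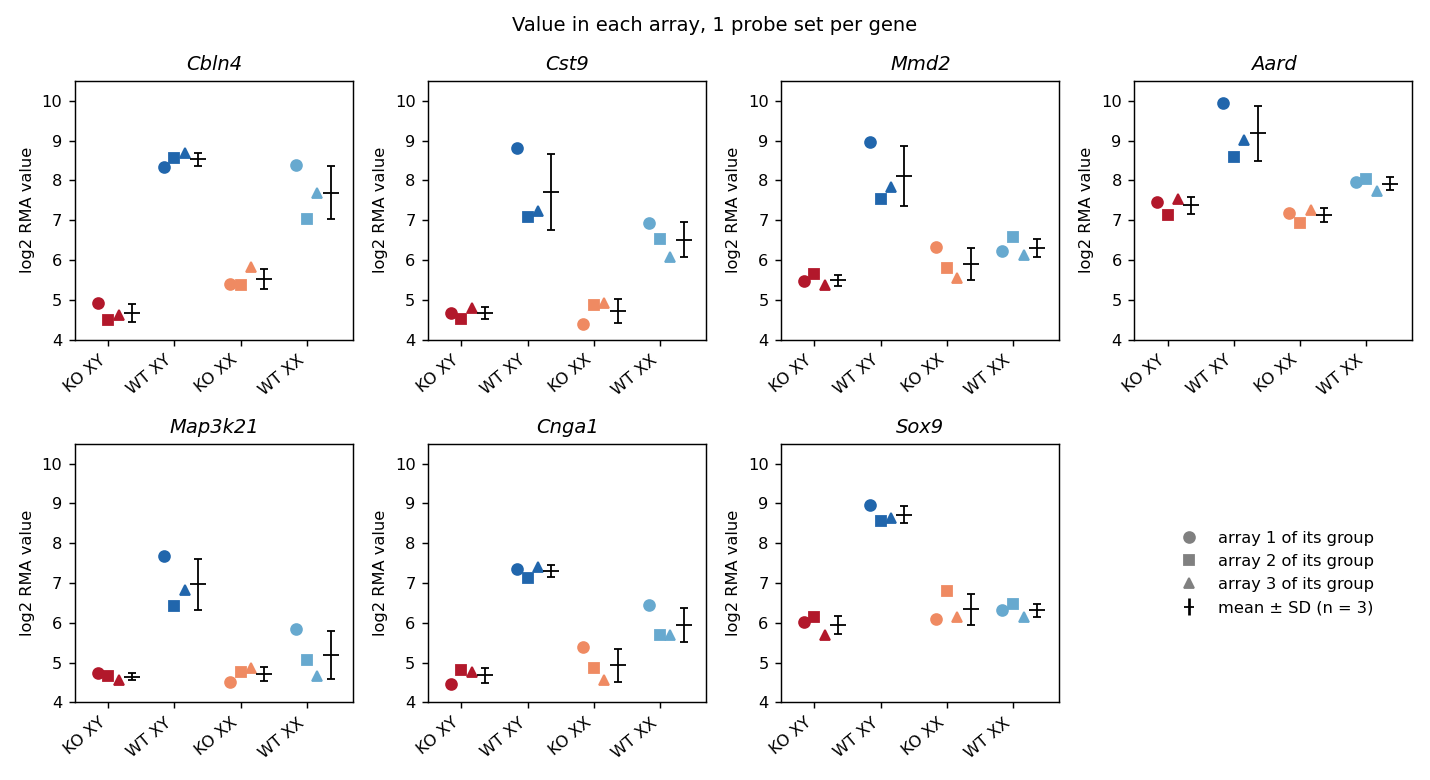
Log2 RMA value of each gene (vertical axis) in every array of the 4 groups (horizontal axis), with symbols for the replicate number and bars for the mean ± SD of 3 arrays. For the 6 genes and Sox9, the KO XY arrays lie below all WT XY arrays, and in Cst9, Mmd2, Aard and Map3k21 the circle of WT XY replicate 1 lies above its group.

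Sox9, the transcription factor beside which these genes are expressed, had 6.02, 6.14 and 5.70 in the KO XY arrays, against 8.96, 8.56 and 8.64 in the WT XY arrays. It fell by 2.77 ± 0.18 (limma, adjusted p = 2.24e-07), and its other probe sets gave -2.21 and -0.62. The Gapdh 3′ minus 5′ difference moved with genotype in XY, since the KO XY arrays lay above all WT XY arrays. With it as a covariate the differences in XY were -3.46 for Cbln4, -2.20 for Cst9, -2.35 for Mmd2, -1.33 for Aard, -1.36 for Map3k21 and -2.32 for Cnga1. Since the Gapdh ranges of KO XY and WT XY did not overlap, the covariate and genotype cannot be told apart in XY. The adjusted values rest on a slope fitted within the groups and are not differences freed of RNA quality.

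The same comparison was made in XX gonads, which lack Sry. All 6 differences were negative there too, but they were uneven, between -2.17 and -0.41 with a median of -0.90, against -0.02 over all genes. Every KO XX array lay below every WT XX array for Cbln4, Cst9, Aard and Cnga1, a pattern that 12.5% of all genes showed, whereas the groups overlapped for Mmd2 and Map3k21. By limma, 5.40% of genes were lower and 8.30% higher in KO XX.

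Cbln4 had 5.39, 5.37 and 5.82 in the KO XX arrays, against 8.38, 7.03 and 7.68 in the WT XX arrays. The groups were 1.21 apart and WT XX spread widely, with replicate 1 the highest. The difference was -2.17 ± 0.25, and -1.83 without WT XX replicate 1. Cst9 had 4.38, 4.86 and 4.91 in the KO XX arrays, against 6.94, 6.53 and 6.07 in the WT XX arrays, a gap of 1.16 and a difference of -1.80 ± 0.35. Cnga1 had 5.38, 4.85 and 4.55 in the KO XX arrays, against 6.44, 5.70 and 5.69 in the WT XX arrays. Only 0.31 separated its nearest arrays, and the difference was -1.02 ± 0.22. Aard had 7.17, 6.94 and 7.27 in the KO XX arrays, against 7.97, 8.04 and 7.73 in the WT XX arrays, a difference of -0.78 ± 0.25 with both groups tight.

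For Mmd2 and Map3k21 the arrays of the XX groups overlapped. Mmd2 had 6.34, 5.81 and 5.54 in the KO XX arrays, against 6.22, 6.57 and 6.13 in the WT XX arrays, with KO XX replicate 1 above the lower WT XX arrays and a difference of -0.41 ± 0.29. Its probe set 1424534_at gave -0.17 with overlap, and 1444572_at gave -0.26 with no overlap. Map3k21 had 4.51, 4.75 and 4.85 in the KO XX arrays, against 5.85, 5.06 and 4.65 in the WT XX arrays. The highest of these values belonged to WT XX replicate 1, and the difference of -0.48 ± 0.29 became -0.15 without it. Its other probe set gave -0.18, with overlap. Sox9 had 6.09, 6.79 and 6.15 in the KO XX arrays, against 6.32, 6.48 and 6.14 in the WT XX arrays, and its difference of 0.03 ± 0.18 did not pass the test (limma, adjusted p = 0.937).

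**Figure D2:**
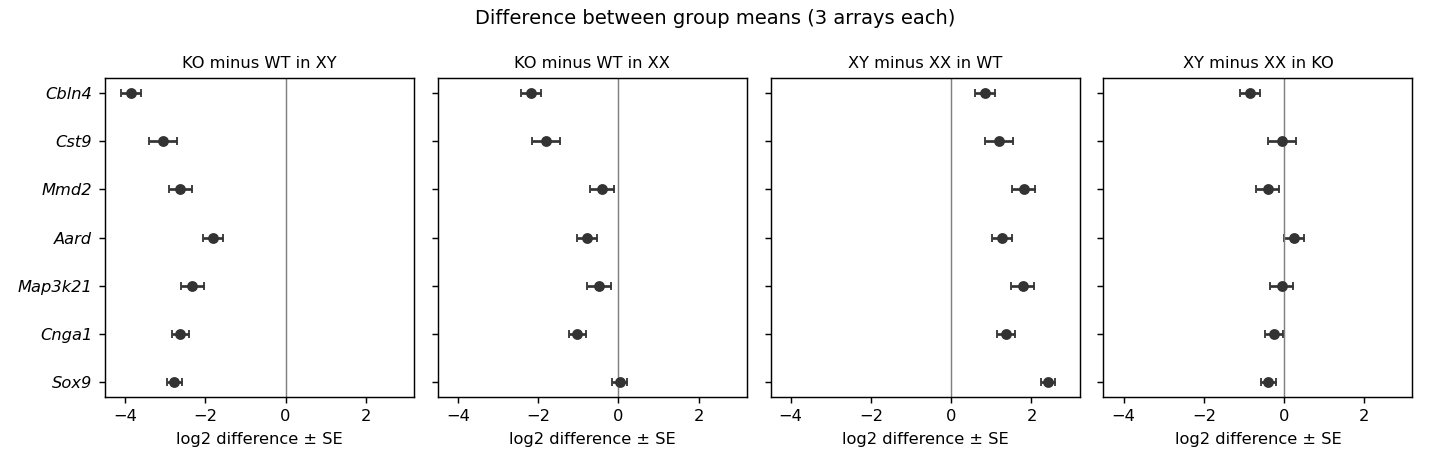
Log2 differences between group means (horizontal axis, points) with their standard errors (bars) for the 6 genes and Sox9 in the comparisons of genotype and of sex. For Cbln4 and Cst9 the difference in XX is -2.17 and -1.80, whereas for Sox9 it is 0.03, and in the knockout all differences between the sexes lie from -0.85 to 0.25.

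Whether the genotype difference was larger in XY than in XX was read from the difference between both values. It was negative for all 6 genes, at -2.21 ± 0.41 for Mmd2, -1.84 ± 0.41 for Map3k21, -1.69 ± 0.36 for Cbln4, -1.61 ± 0.31 for Cnga1, -1.25 ± 0.49 for Cst9 and -1.02 ± 0.36 for Aard. The median was -1.65, against 0.00 over all genes, and it was -1.94 without WT XX replicate 1. For Sox9 it was -2.80 ± 0.26 (limma, adjusted p = 0.000576), and Sox9 was the 1 gene called lower in this contrast, or 0.00550% of all genes. The values changed without WT XY replicate 1 and with the Gapdh covariate, which in XY cannot be told apart from genotype. In that order Cst9 had -0.70 and -0.12, Aard had -0.64 and -0.39, and Map3k21 had -1.48 and -0.55. Mmd2 had -1.79 and -1.86, Cbln4 had -1.78 and -1.16, and Cnga1 had -1.57 and -1.20. With the probe sets of a gene averaged, Mmd2 had -0.73 and Map3k21 -0.95. With the covariate Sox9 had an adjusted p of 0.0961 (limma), and its adjusted p lay between 0.000104 and 0.0961 over the alternatives. In Cst9, Map3k21 and Cnga1 the knockout means of both sexes were low, from 4.65 to 4.93. Their values here thus depend largely on the wild-type levels.

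Sex was then compared within each genotype. In wild-type gonads the 6 genes were higher in XY than in XX, by 0.84 to 1.81 with a median of 1.31, against 0.03 over all genes. Every WT XY array lay above every WT XX array in 5 of the 6 genes, as it did in 10.0% of all genes. By the probe sets that stand for the genes, Mmd2 had the largest difference (1.81 ± 0.29), followed by Map3k21 (1.78 ± 0.29), Cnga1 (1.36 ± 0.22), Aard (1.27 ± 0.25) and Cst9 (1.20 ± 0.35). With the probe sets of a gene averaged, Mmd2 had 0.72 and Map3k21 0.96, below Cnga1, Aard and Cst9, so this order depends on the probe set. Cbln4 had the smallest difference by the probe sets that stand for the genes, 0.84 ± 0.25. Its lowest WT XY array at 8.35 lay just under its highest WT XX array, replicate 1 at 8.38, and without that array the difference was 1.18.

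Few genes passed the test between the sexes in wild type, 0.0550% of genes higher and 0.00550% lower in XY. Sox9 was one of them, higher in XY by 2.41 ± 0.18 (limma, adjusted p = 7.50e-06). The number of genes called rests on WT XX replicate 1, since 11 genes passed with it and 1876 without it. Without WT XY replicate 1 the Cst9 difference was 0.65 and the Aard difference 0.89, whereas Cnga1 had 1.32. The Mmd2 probe sets 1424534_at and 1444572_at gave 0.31 and 0.05, and the Map3k21 probe set 1425807_at gave 0.14, all with overlapping groups.

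In knockout gonads the difference between the sexes was smaller than in wild type in size for each of the 6 genes but Cbln4. The differences lay between -0.85 and 0.25 with a median of -0.15, against 0.03 over all genes. Cst9 (-0.05 ± 0.35), Map3k21 (-0.06 ± 0.29), Cnga1 (-0.25 ± 0.22), Aard (0.25 ± 0.25) and Mmd2 (-0.41 ± 0.29) had overlapping arrays. For Cst9, Map3k21 and Cnga1 the means of both knockout groups, 4.65 to 4.93, lay below the array medians of 5.88 to 5.94. At such low signals a difference between the sexes may not be visible. Cbln4 ran the other way from wild type, with 4.92, 4.49 and 4.61 in KO XY arrays against 5.39, 5.37 and 5.82 in KO XX arrays, a difference of -0.85 ± 0.25. Every KO XY array was thus below every KO XX array for 1 of the 6 genes, as for 8.01% of all genes. By limma 0.0220% of genes were higher and 0.0110% lower in KO XY than in KO XX, and Sox9, at -0.39 ± 0.18, did not pass (adjusted p = 0.5). The Gapdh difference was higher in all KO XY arrays than in all KO XX arrays, and with it as a covariate the values were -0.41 for Cbln4, 0.89 for Cst9, -0.11 for Mmd2, 0.77 for Aard, 1.01 for Map3k21 and 0.09 for Cnga1. Since the Gapdh ranges of KO XY and KO XX did not overlap, the covariate and the group cannot be told apart here. The adjusted values rest on a slope fitted within the groups, and no direction is read from them.

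Put in order, WT XY had the highest group mean and WT XX the next in all 6 genes. KO XY had the lowest mean in Cbln4, Cst9, Mmd2, Map3k21 and Cnga1, and KO XX had it in Aard. Neighbouring groups in that order overlapped in KO XY and KO XX for every gene but Cbln4, in KO XX and WT XX for Mmd2 and Map3k21, and in WT XY and WT XX for Cbln4.

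Within the wild-type groups the genes did not vary alike. WT XY replicate 1 was the highest of its group in Cst9, Mmd2, Aard and Map3k21, by 1.10, 0.85, 0.77 and 0.70 over the group mean. In Cnga1 it was near the mean, at 0.06, and in Cbln4 it was the lowest, at -0.18. Sox9 was 0.24 above its mean there. WT XY replicate 2, whose Gapdh difference of 4.57 was the highest of its group, was the lowest array in 5 of the 6 genes. The part of RNA quality in this was not tested.

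WT XY replicate 1 was the highest array of its group for 42.4% of all genes, and for 15 of 22 supporting-lineage genes. Lists of other kinds held similar shares, with 7 of 9 macrophage markers, 5 of 7 erythroid and 5 of 7 mesonephros markers and all 4 channel genes related to Cnga1, so nothing particular to the lineage is read from this. It was the highest for 3 of 16 gonadal regulators and 5 of 14 pregranulosa genes. Adamts16, a secreted metalloprotease gene, had 8.59, 7.55 and 7.93 in the WT XY arrays. Dmrt1 ran the other way, with 9.76, 10.01 and 9.99. Tesc and Fgf9, chosen after their values were seen, had 9.10, 7.29 and 7.59 and 8.82, 7.91 and 7.92.

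**Figure D3:**
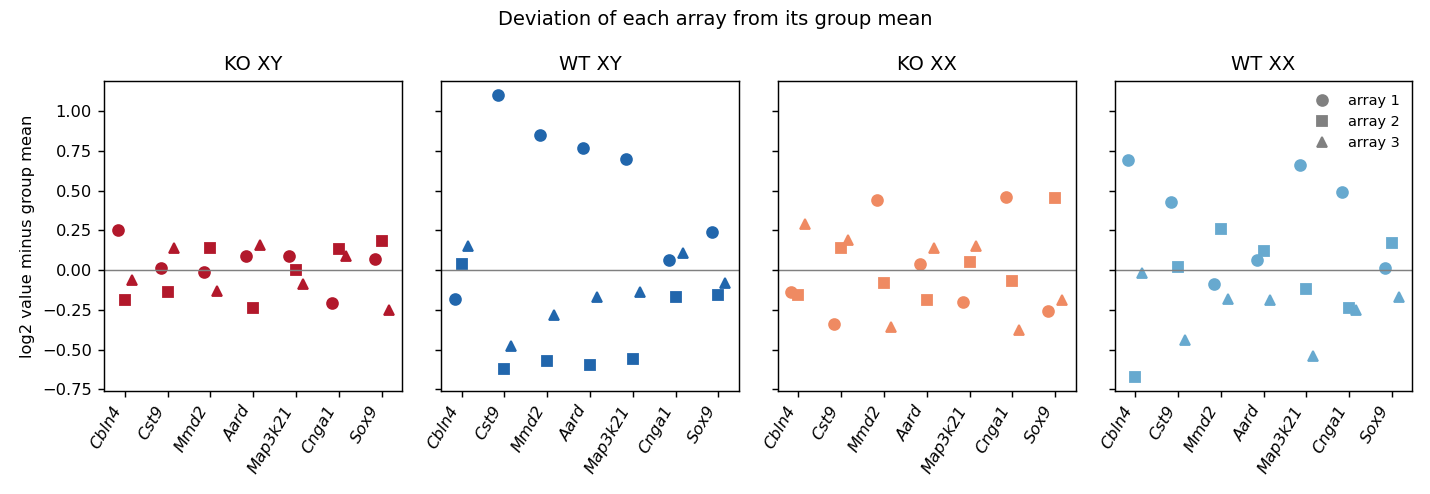
Deviation of each array from the mean of its group (vertical axis, log2) for the 6 genes and Sox9 (horizontal axis), with symbols for the replicate number. In WT XY, replicate 1 deviates by 0.70 to 1.10 in Cst9, Mmd2, Aard and Map3k21 and by -0.18 in Cbln4, and in WT XX, replicate 1 is the highest array in Cbln4, Cst9, Map3k21 and Cnga1.

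Across the 12 arrays, Pearson's r between 2 of the 6 genes lay between 0.78 and 0.95 over 15 pairs, and between 0.73 and 0.93 with Sox9. These values describe arrays that fall into separate genotype groups, share one normalization and served to choose the genes, so they mostly restate the group means. After the group means were subtracted, r lay between -0.45 and 0.90 with a median of 0.36. Cst9 with Map3k21 (0.90), Cst9 with Aard (0.86), Mmd2 with Aard (0.75) and Aard with Map3k21 (0.73) were the highest, and these 4 genes are those for which WT XY replicate 1 stood high. Cbln4 with Mmd2 was the lowest, at -0.45.

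The genes most alike were sought among 1120 genes with an SD of at least 0.5 over the 12 arrays, again as a description. Genes with provisional symbols (Gm, LOC and Rik) were left out before the closest 3 were taken. Cbln4 was most like Greb1, an estrogen-responsive gene (r = 0.99), Eps8, an actin regulator (0.98), and Aldh3a2, a fatty aldehyde dehydrogenase (0.98). Cst9 was most like the annexin gene Anxa4 (0.98), the transcriptional corepressor gene Tle6 (0.97) and the transmembrane gene Tmem184a (0.96). Mmd2 had Cyp26b1, the enzyme that breaks down retinoic acid (0.96), the efflux pump gene Abcb1a (0.94) and Aard (0.94). Aard had Map3k21 (0.95), Anxa4 (0.95) and Cst9 (0.94), and Map3k21 had Aard (0.95), Mmd2 (0.93) and the glutathione transferase gene Gstm2 (0.93). Cnga1 was most like Ddit4l, an inhibitor of mTOR signalling (0.96), Cyp26b1 (0.95) and Anxa4 (0.95). The 6 genes thus pointed to each other only in part, since Cbln4, Cst9 and Cnga1 had no other of the 6 among their closest 3.

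Other genes of the supporting lineage were taken from a list of 26, of which 22 were measured. This list and those below were chosen with earlier results of these data known, so their counts and p-values are given as a description. Over all genes, 6.75% were called lower and 6.56% higher in XY, and 5.40% lower and 8.30% higher in XX. Nothing is read from setting the counts beside these shares. In XY, 10 of the 22 fell and none rose with limma's adjusted p under 0.05, where 15 had an unadjusted p under 0.05, and the list's median was -0.49. The activin and inhibin subunit Inhbb (-3.64 ± 0.23), the protease gene Adamts16 (-2.38 ± 0.22), the transcription factor Dmrt1 (7.93 ± 0.39 in KO XY against 9.92 ± 0.14 in WT XY) and the Kit ligand gene Kitl (-1.96 ± 0.16) fell. The defensin Defb19 (-1.88), Cyp26b1 (-1.23) and the pantetheinase Vnn1 (-1.11) fell too. Tesc (-1.49) and Dhh (-0.79) were also called, but their adjusted p (limma) reached 0.324 and 0.806 over the alternatives. The count of 10 became 8 with the Gapdh covariate and 9 to 12 with single arrays left out. In XX, 8 of the 22 fell, among them Inhbb (-3.42 ± 0.23), Dmrt1 (-2.15 ± 0.28), Adamts16 (-1.68 ± 0.22), Kitl (-1.64 ± 0.16), Defb19 (-1.48), Vnn1 (-1.19), the growth factor Pdgfa (-0.64, with adjusted p up to 0.0554 over limma's alternatives) and Mro (-0.52), with a list median of -0.34. The 1 gene higher in KO XX was Fgf9, a growth factor that acts with Sox9 (1.26 ± 0.36, limma, adjusted p = 0.0294, and 0.000974 to 0.12 over the alternatives). No other listed gene than Sox9 passed between the sexes in wild type or in the difference of the genotype effects. Without WT XX replicate 1, 4 listed genes were higher and 1 lower in WT XY than in WT XX.

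**Figure D4:**
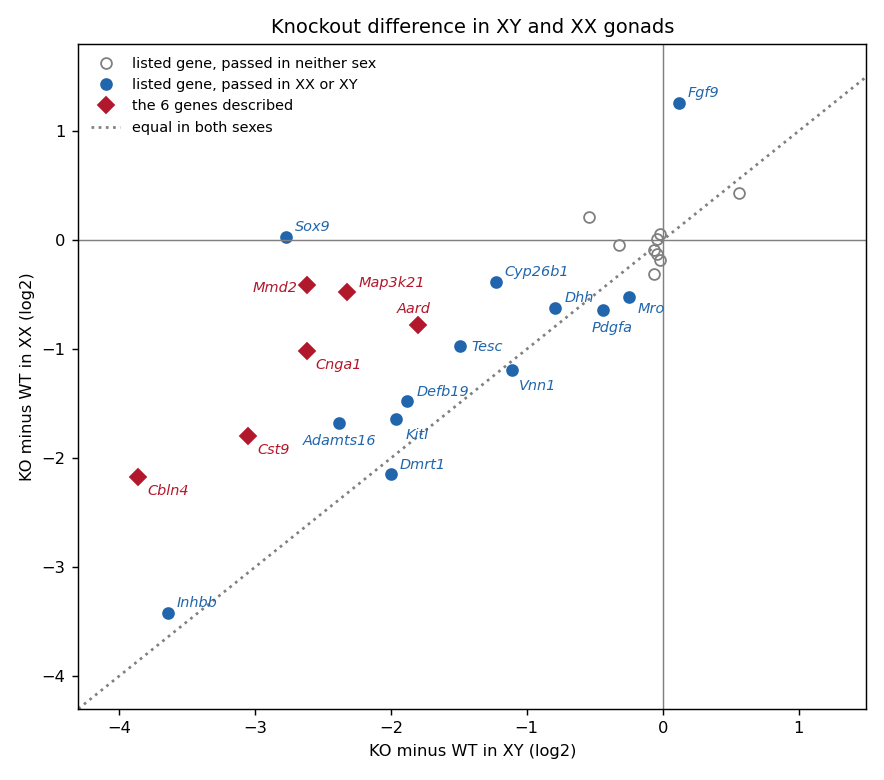
KO minus WT log2 difference in XY (horizontal axis) against that in XX (vertical axis) for the 6 genes (diamonds) and 22 listed supporting-lineage genes (circles, filled where a gene passed in XX or XY), with a dotted line where both are equal. The 6 genes lie above the line, between Sox9 at -2.77 and 0.03 and genes near the line such as Inhbb at -3.64 and -3.42.

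Regulators of the gonadal ridge and pregranulosa genes also changed in both sexes. Of 16 gonadal regulators, 5 fell and 2 rose in XY, and 5 fell and 4 rose in XX. Gadd45g, needed for timely Sry expression, fell (-3.84 ± 0.18 in XY and -3.13 ± 0.18 in XX), and the nuclear receptor genes Nr5a1 (-2.35 in XY and -2.04 in XX) and Nr0b1 (-2.50 and -1.97) fell as well. Gata4 fell (-1.49 in XY and -1.41 in XX), but GATA4 staining guided the capture. Wt1 had -0.17 ± 0.10 in XY and -0.13 ± 0.10 in XX and did not pass (limma, adjusted p = 0.341 and 0.465). Of 14 pregranulosa genes, 7 fell and 1 rose in XY, and 9 fell and 1 rose in XX. Over all genes, 6.75% were called lower and 6.56% higher in XY, and 5.40% lower and 8.30% higher in XX. The pregranulosa gene that rose was Nr2f1 (1.22 in XY and 0.57 in XX). Its adjusted p (limma) reached 0.0531 in XY and 0.157 in XX over the alternatives. The signalling ligand Bmp2 (-2.51 in XY and -2.87 in XX), the activin antagonist Fst (-3.35 and -4.28), the transcription factor Runx1 (-2.68 and -2.94), the epithelial gene Sprr2d (-3.62 and -3.23) and the Wnt-pathway receptor Lgr5 (-1.83 and -2.24) fell in both sexes.

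Relatives of the 6 genes were called in XY in 3 of 8 cases among cerebellins and their receptors, 1 of 8 cystatins, 1 of 10 PAQR genes, 2 of 9 kinases and 0 of 4 channel genes, where 6.56% of all genes were called higher and 6.75% lower. In XX, 1 cerebellin and 1 kinase gene were called, where 8.30% of all genes were called higher and 5.40% lower. Cbln1 fell in XY (-1.16 ± 0.26, limma, adjusted p = 0.00682) and in XX (-1.11 ± 0.26, limma, adjusted p = 0.00941), while the receptor genes Nrxn2 (0.72) and Grid1 (0.59) rose in XY. The cystatin gene Cst12 fell in XY (-0.52), and the PAQR gene Paqr3 rose in XY (0.66). Of the kinase genes related to Map3k21, Map3k20 fell in XY (-0.80), and Map3k7, which encodes the TGF-beta activated kinase, rose in XY (0.47) and in XX (0.60). The XY value of Map3k7 was -0.07 with the mean of its probe sets. Each of these XY calls was lost under at least 1 alternative, with highest adjusted p (limma) of 0.0699 for Cbln1, 0.819 for Nrxn2, 0.754 for Grid1, 0.0744 for Cst12, 0.867 for Paqr3, 0.129 for Map3k20 and 0.738 for Map3k7. In XX the highest was 0.0457 for Cbln1 and 0.471 for Map3k7. None of the 4 channel genes passed limma's test in either sex, with 1 at an unadjusted p under 0.05 in XY and 0 in XX.

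Markers of other cell types moved with genotype beside the 6 genes, and their part in the differences was not tested. For the counts here and below, 6.75% of all genes were called lower and 6.56% higher in XY. In XX these shares were 5.40% and 8.30%. Of 10 endothelial markers, 7 fell in XY and 6 in XX (3 without WT XX replicate 1), including Emcn (-1.30 in XY and -0.64 in XX), Sox17 (-1.25 and -1.44) and Sox18 (-1.03 and -0.90). Their mean level per array was 6.42 to 7.08 in KO XY against 7.59 to 7.72 in WT XY, and 6.57 to 7.35 in KO XX against 7.45 to 7.66 in WT XX. Of 9 coelomic epithelium markers, 5 rose in XY and 6 in XX, led by Krt19 (2.41 and 2.71), and Krt8 fell in both (-1.51 and -1.48). Their level was 8.62 to 8.68 in KO XY against 7.99 to 8.09 in WT XY, and 8.64 to 8.91 in KO XX against 7.78 to 7.93 in WT XX.

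Of 9 macrophage markers, 4 rose in XY and 3 in XX, with the complement gene C1qa at 0.75 and 0.63. Leaving out single arrays gave 1 to 5 in XY and 0 to 4 in XX. Their level was 7.35 to 7.44 in KO XY against 6.73 to 6.97 in WT XY, and 7.04 to 7.74 in KO XX against 6.54 to 6.87 in WT XX. Of 12 germ cell markers, Tfap2c rose in XY (0.79, with 0 to 2 markers higher when single arrays were left out) and 4 rose in XX (1 to 4 likewise), among them Dazl and Ddx4 (0.94 each), with levels of 7.81 to 8.05 in KO XY against 7.55 to 7.90 in WT XY and of 7.87 to 8.06 in KO XX against 7.43 to 7.70 in WT XX.

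Of 7 mesonephros markers, 2 fell in XY and 2 in XX (1 without WT XX replicate 1), including Calb1 (-3.45 in XY and -2.09 in XX), and Gata3 rose in XX (0.75, but not without WT XX replicate 1). The list had levels of 5.22 to 5.35 in KO XY against 5.79 to 5.89 in WT XY and of 5.21 to 5.61 in KO XX against 5.52 to 5.72 in WT XX. Calb1 weighed most on this level and the list did not fall as a whole. In XY Wfdc2 had -0.55, Pax8 -0.42, Lhx1 -0.10, Ret 0.03, Cdh16 0.14 and Gata3 0.58. Of 7 steroidogenic and adrenal genes, 2 fell and 1 rose in each sex, with Cyp11a1 at -2.30 in XY and -2.64 in XX and Mc2r at 1.22 and 1.26. Their level was 6.84 to 6.96 in KO XY against 7.12 to 7.19 in WT XY, and 6.77 to 6.88 in KO XX against 7.08 to 7.21 in WT XX. Cyp11a1 weighed most on it. In XY Hsd3b1 had -0.49, and Star (-0.19), Mgst1 (-0.18), Cyp11b1 (-0.01) and Cyp21a1 (0.04) did not pass. Of 7 erythroid genes Klf1 fell in XY (-0.75) and none passed in XX, where 0 had an unadjusted p under 0.05, and of 6 neural genes Nefl rose in both sexes (2.04 and 1.74) and Stmn2 rose in XX (0.89). Erythroid levels were 9.11 to 9.65 in KO XY against 9.65 to 9.82 in WT XY, and 9.35 to 9.83 in KO XX against 9.54 to 9.76 in WT XX. Neural levels were 6.69 to 6.76 in KO XY against 6.05 to 6.15 in WT XY, and 6.62 to 6.87 in KO XX against 6.12 to 6.43 in WT XX. With single arrays left out, 4 to 8 endothelial markers fell in XY and 2 to 7 in XX, and 0 to 3 erythroid genes fell in XY. Over the alternatives the adjusted p (limma) reached 0.899 for Tfap2c, 0.557 for Klf1, 0.101 for C1qa and 0.078 for Sox18 in XY, and 0.2 for Stmn2, 0.125 for C1qa, 0.12 for Emcn and Gata3, 0.0859 for Dazl and 0.0691 for Ddx4 in XX.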

How the data were processed

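Gene expression was measured on Affymetrix mouse arrays in 12 pools of laser-captured gonadal cells. The deposited values are log2 values that the authors made with RMA, and Affymetrix Expression Console, RMA and affy are named per the submitters' processing notes, with versions not given in the sources used here. Of 45101 probe sets, 64 were controls, 34945 had a single gene, 932 several and 9160 none. RefSeq identifiers were found for 34741 of those with a single gene, which changed 0 symbols. Values ran between 2.37 and 15.01, and array medians between 5.88 and 5.94, so no transformation or filter was applied.

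The 18193 genes, 9010 of them with several probe sets, were fitted with limma 3.58.1 in R 4.3.3 (lmFit and eBayes, 4 group means, 8 residual degrees of freedom, two-sided, Benjamini-Hochberg within each contrast, threshold 0.05). KO was set against WT within each sex, XY against XX within each genotype, and the KO effect in XY against that in XX. Steps were tested on simulated data. Arrays have no read depth, and with 3 arrays per group their number limits the precision. Labels do not say whether pools shared litters, so p-values cover only the spread between pools.

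The 6 genes, the gene lists and the motifs were chosen with earlier results of these data known. Named genes were the 6 genes and Sox9, up to 8 called supporting-lineage genes of smallest p per contrast, up to 4 called gonadal regulators and pregranulosa genes, up to 4 called relatives of each family, the 3 genes most alike to each of the 6, up to 2 called markers of each other cell type, and Cbx2, Xist and Eif2s3y. Sry, Dhh, Tesc and the gonadal regulators and pregranulosa genes called higher were added after their values were seen. The 9 alternatives covered normalization (quantile normalization repeated, or arrays centred on a common median), array weights, the Gapdh covariate, a filter on low values, the mean over a gene's probe sets, a replicate block, another variance prior and a fit of the contrast's own groups, and each of the 12 arrays was left out in turn.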

Additional observations from a re-analysis of the deposited data

Results flagged for a closer look

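Sox9 stood out because its genotype difference was not the same in the sexes by a test of that difference. The KO minus WT value in XY minus that in XX was -2.80 ± 0.26 on the log2 scale (limma, adjusted p = 0.000576, and 0.0961 with the Gapdh covariate). All 3 KO XY arrays lay below all 3 WT XY arrays, whereas KO XX and WT XX overlapped. Groups of 3 arrays were too small to screen for outlying arrays.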

How the results depend on the processing

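The medians of the 6 genes kept their sign under the 9 alternatives (8 for the difference of the KO effects, which needs all 4 groups) and with each array left out, except in KO XY against KO XX, where the Gapdh covariate turned -0.15 into 0.43. The median of the difference between the KO effects, -1.65, was -1.13 when probe sets of a gene were averaged, -0.86 with the Gapdh covariate and between -1.94 and -1.42 with single arrays left out. Counts of called genes moved more. In XY, 2421 genes became 4406 with array weights, 780 with the Gapdh covariate, 3802 in a fit of the XY arrays alone and 1598 (without WT XY replicate 1) to 3397 (without WT XX replicate 1) with single arrays left out. In XX, 2493 became 1532 in a fit of the XX arrays alone. Between WT XY and WT XX, 11 became 1191 with array weights, 7 in a fit of the WT arrays alone and 7 (without KO XY replicate 1 or 2) to 1876 (without WT XX replicate 1). The supporting-lineage genes called there were 1, but 4 with array weights, and 1 to 4 with single arrays left out (4 without WT XX replicate 1 and 2 without WT XX replicate 2). Between KO XY and KO XX, 6 became 11 with the Gapdh covariate. In the difference of the KO effects, 1 gene became 3 with array weights, 0 with the Gapdh covariate, 1 to 10 with single arrays left out (10 without WT XX replicate 1, and 2 without KO XX replicate 2 or KO XY replicate 1), and the supporting-lineage genes called became 0 with the covariate. Map3k7 in XY turned to -0.07 (limma, adjusted p = 0.738) when its probe sets were averaged. Of 117 values for other named genes none else reversed, and 254 of their recomputed values missed the threshold. The causes were not tested.

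Replicate numbers showed no clear pairing of the arrays. Deviations of same-numbered arrays correlated between -0.212 and 0.279 (median 0.028). Those of differently numbered arrays correlated between -0.31 and 0.305 (median -0.02). Ranges this wide cannot show whether pools shared a litter or batch. With a replicate block 2565 genes passed in XY, 2498 in XX, 12 between WT XY and WT XX, 6 between KO XY and KO XX and 1 in the difference of the KO effects.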
